A study of Mus musculus with 32 samples.

Results

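The joint action of 2 transgenes, the kinase Mst1 and a dominant negative phosphoinositide 3-kinase (dnPI3K), was examined in mouse atria by asking for every gene how far the double transgenic departed from the sum of the single transgenic changes. All 32 of the 32 arrays were used, 1 for each atrium of 16 mice on a combined C57BL/6/FVB/N background. There were 4 animals of each of 4 genotypes: Ntg, the controls without a transgene (animals 1301, 1657, 1662 and 1834), Mst1 (1466, 1838, 1839 and 1840), dnPI3K (1507, 1648, 1660 and 3241) and dnPI3K-Mst1, which carries both (1509, 1647, 1649 and 1650). Values by animal are given in that order throughout, as log2 array signals. The labels name the transgenes without the promoter that drives them, the part of PI3K used, or the animals' age. The tissue is whole atrium, so fewer cells of a type and less RNA per cell cannot be told apart.

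PI3K is activated by insulin and related growth factors and, through the kinase Akt, favours growth and survival of heart muscle and keeps FoxO transcription factors out of the nucleus. Mst1, encoded by Stk4, is the upstream kinase of the Hippo pathway, restrains the coactivator YAP, and is known to promote the death of cardiac myocytes. Additivity was taken on the log2 scale, where changes that multiply the signal add. This is a choice, and departures can differ on linear signals. A departure is the mean of dnPI3K-Mst1, less the means of Mst1 and of dnPI3K, with the Ntg mean added back: it is 0 where the changes add, positive where the double transgenic lies above the additive level, and negative where it lies below.

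The arrays were split at a Bmp10 level of 9 log2, without regard to the labelled side. Bmp10, a growth factor known in the adult mouse chiefly from the right atrium, chose the sets and is therefore only described. It lay between 11.42 and 12.77 in the 16 arrays called Bmp10-high and between 3.77 and 6.64 in the 16 called Bmp10-low. Nearest to the threshold were Mst1 1466 labelled left at 11.42 and Mst1 1839 labelled left at 6.64. Each animal had 1 array in each set. The Bmp10-high set held 13 arrays labelled left, and its 3 arrays labelled right came from Ntg 1301, Ntg 1662 and Mst1 1839, so the sets follow neither labelled side and are named by Bmp10 alone.

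**Figure D1:**
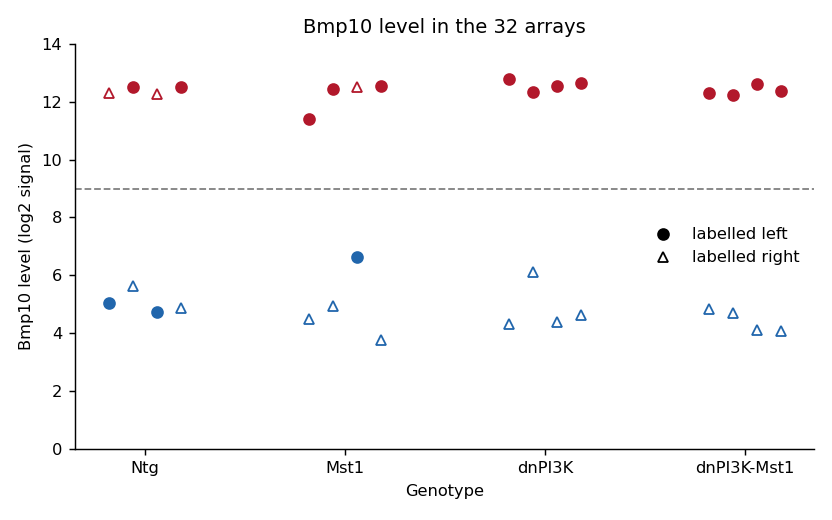
Bmp10 level (y axis, log2 signal) in each of the 32 arrays by genotype (x axis), red for Bmp10-high and blue for Bmp10-low, filled circles labelled left and open triangles labelled right. The dashed line is the threshold of 9, and no array lies between 6.64 and 11.42.

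Array medians lay between 5.51 and 5.68. Atrial genes marked every array: Myl7 was between 11.93 and 12.70, Myl4 between 12.46 and 12.88 and Nppa between 13.16 and 13.56. The 4 arrays with a mean correlation under 0.97 to the other arrays were Mst1 1466, dnPI3K 1507, dnPI3K 3241 and Ntg 1662, all in the Bmp10-high set, whose median residual SD was 0.19 against 0.16 in the Bmp10-low set. Adipoq, a fat cell gene, stood at 7.85 in Ntg 1301 and 7.79 in dnPI3K-Mst1 1650 in the Bmp10-low set and at 5.72 or less in the other 30 arrays. Myl2, a ventricular gene, stood at 10.70 in dnPI3K 1648 and 8.15 in Ntg 1301 in the Bmp10-high set.

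Departures were rare, and those that passed the test were nearly all shortfalls: the double transgenic changed less than the single changes summed. Of 15219 genes tested with limma in 4 animals per genotype, 33 (0.217%) departed in Bmp10-high atria at an adjusted p under 0.05, 29 upward and 4 downward, and 56 (0.368%) in Bmp10-low atria, 33 upward and 23 downward. At an unadjusted p under 0.05 there were 1472 and 1502. The single transgenes set the scale: by the same test Mst1 against Ntg called 14.8% of genes in Bmp10-high and 27% in Bmp10-low atria, dnPI3K 0.986% and 3.8%, and the double 16.6% and 29.8%. The double differed from Mst1 alone in 0.887% and 2.55% and from dnPI3K alone in 13% and 17.4%. The departure opposed the summed single changes in 32 of the 33 genes and in 55 of the 56, against 75.5% and 73.6% of all genes tested. The single changes and the departure share arrays, so this count is a description.

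Most called genes had the same sign in both sets, and few were called in both. Of the 33 genes called in Bmp10-high atria 31 had the same sign in Bmp10-low atria. Of the 56 called in Bmp10-low atria 51 had the same sign in Bmp10-high atria. The share of all genes with the same sign in both sets was not counted, so these counts lack a background and are a description only. Among all genes, 324 (2.13%) had the same sign and an unadjusted p under 0.05 in both sets, 253 upward and 71 downward, and 8 (0.0526%) had opposite signs. Of the 85 genes (0.559%) called in either set, 4 (0.0263%) were called in both: Slc7a7, Stom and Abat upward, and Adamts8 downward. With those called in 1 set and of the same sign at an unadjusted p under 0.05 in the other, 57 of 15219 genes agreed. Of these, 42 departed upward and 15 downward. Both sets come from the same 16 animals, so their agreement is not an independent repeat. A fit of all 32 arrays with the animal as a block called 54 genes in Bmp10-high atria and 13 in both sets, among them Slc7a7, Stom and Abat but not Adamts8. The counts moved with single animals. In Bmp10-high atria 76 genes were called without Mst1 1466 and 51 without Ntg 1834, but 9 without Ntg 1657, 11 without Ntg 1301, 12 without Mst1 1838, 13 without dnPI3K 1648, 14 without Mst1 1839 or dnPI3K-Mst1 1647, 17 without dnPI3K-Mst1 1509, 19 without dnPI3K-Mst1 1649, 20 without dnPI3K-Mst1 1650 and 21 without Mst1 1840. In Bmp10-low atria 94 were called without Mst1 1466, 28 without dnPI3K 3241, 30 without Mst1 1838, Mst1 1839 or dnPI3K 1507, 31 without Mst1 1840, 33 without dnPI3K 1648, 36 without Ntg 1301 and 37 without dnPI3K-Mst1 1509. The number called in both sets was 16 without Mst1 1466, 2 without dnPI3K-Mst1 1509, and 1 without any of Mst1 1838, Mst1 1839, Mst1 1840, Ntg 1834, dnPI3K 1507 or dnPI3K 1648.

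**Figure D2:**
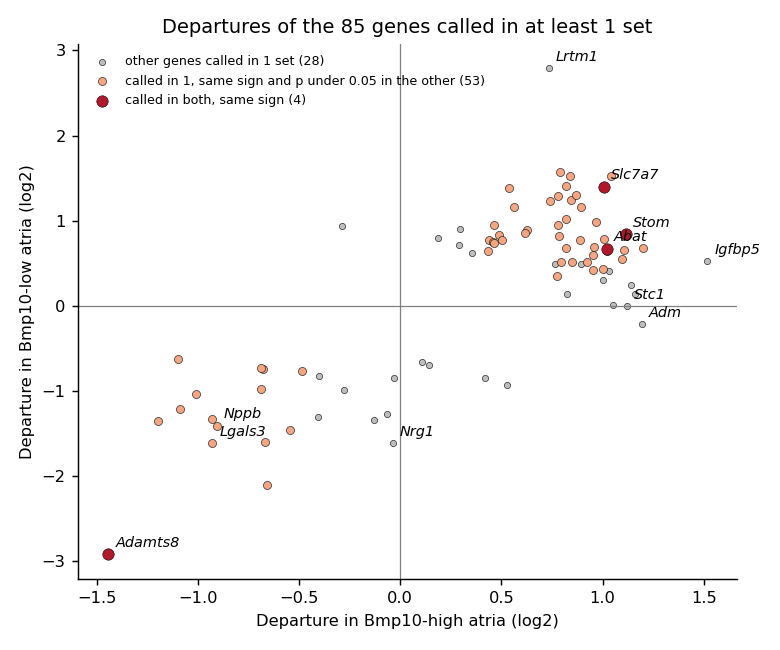
Departure in Bmp10-high atria (x axis, log2) against departure in Bmp10-low atria (y axis, log2) for the 85 genes called in at least 1 set, 1 point per gene. The 4 genes called in both are dark red, the 53 called in 1 set with the same sign and an unadjusted p under 0.05 in the other are orange, and the other 28 are grey. Most points lie at the upper right or lower left, where both departures have the same sign.

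Slc7a7 encodes a light subunit of the cationic amino acid exchanger y+LAT1. In Bmp10-high atria it read 8.83, 8.74, 8.43 and 8.83 in Ntg, 6.70, 6.89, 7.07 and 7.13 in Mst1, 7.87, 7.80, 8.13 and 7.86 in dnPI3K, and 7.21, 7.11, 7.18 and 7.15 in dnPI3K-Mst1. The Ntg animals lay above all others and dnPI3K above both Mst1 genotypes, and the double transgenic lay near the top of the Mst1 range. Mst1 alone lowered it 3.38-fold (-1.76 ± 0.12 log2, SE) and dnPI3K alone 1.73-fold (-0.79 ± 0.12), yet the double was 2.92-fold below Ntg, which left it 1.01 ± 0.17 above the additive level of 6.16 (limma adjusted p = 0.0135). In Bmp10-low atria it read 8.29, 8.45, 8.19 and 8.45 in Ntg, 6.57, 6.57, 6.62 and 6.70 in Mst1, 7.02, 7.40, 7.13 and 7.30 in dnPI3K, and 6.87, 7.14, 6.77 and 6.77 in dnPI3K-Mst1. All 4 double transgenic animals there lay above all 4 Mst1 animals, and the departure was 1.40 ± 0.14 (adjusted p = 9.27e-05). Adding dnPI3K to Mst1 moved Slc7a7 by 0.21 ± 0.12 and 0.27 ± 0.10 in the 2 sets (adjusted p = 0.671 and 0.15). Both calls held with any animal left out, while without Ntg 1301 and dnPI3K-Mst1 1650 together the Bmp10-high departure was 0.97 (adjusted p = 0.0709).

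Stom encodes stomatin, a scaffold protein of the plasma membrane. Its Bmp10-high levels were 9.28, 9.01, 9.47 and 9.22 in Ntg, 7.53, 7.76, 7.58 and 7.86 in Mst1, 8.28, 8.15, 8.51 and 7.99 in dnPI3K, and 8.03, 7.68, 7.87 and 7.54 in dnPI3K-Mst1. The double transgenic overlapped Mst1, and Ntg stood above every transgenic animal. Mst1 lowered Stom 2.95-fold and dnPI3K 2.02-fold, and together 2.75-fold, a departure of 1.11 ± 0.19 (adjusted p = 0.0147). The Bmp10-low levels were 9.11, 9.17, 9.36 and 9.40 in Ntg, 8.23, 7.76, 7.97 and 8.03 in Mst1, 8.37, 8.47, 8.63 and 8.62 in dnPI3K, and 8.27, 8.23, 7.82 and 8.08 in dnPI3K-Mst1. Here too the double overlapped Mst1 and lay below dnPI3K, and the departure was 0.84 ± 0.16 (adjusted p = 0.0261). The Bmp10-low call was lost without any 1 of 7 animals (Mst1 1838, Mst1 1839, Mst1 1840, Ntg 1834, dnPI3K 1507, dnPI3K 1648 and dnPI3K-Mst1 1509), with departures of 0.76 to 0.94 over all 16 such fits.

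Abat encodes the mitochondrial transaminase that breaks down GABA. It read 8.29, 8.15, 8.38 and 8.34 in Bmp10-high Ntg atria, 7.11, 7.23, 7.31 and 7.49 in Mst1, 7.67, 7.42, 7.64 and 7.32 in dnPI3K, and 7.37, 7.59, 7.68 and 7.48 in dnPI3K-Mst1. The 3 transgenic groups overlapped and all their animals lay below Ntg. Mst1 lowered it 2.01-fold, dnPI3K 1.71-fold and both 1.70-fold, a departure of 1.02 ± 0.16 (adjusted p = 0.0116). The Bmp10-low values were 7.73, 7.79, 8.01 and 8.11 in Ntg, 7.35, 7.40, 7.29 and 7.42 in Mst1, 7.14, 7.42, 7.54 and 7.40 in dnPI3K, and 7.43, 7.55, 7.50 and 7.50 in dnPI3K-Mst1. Again every transgenic animal lay below every Ntg animal, and the departure was 0.67 ± 0.14 (adjusted p = 0.0383). That call was lost with any 1 of 12 animals left out, the exceptions being Mst1 1466, Ntg 1301, Ntg 1657 and dnPI3K 1660, at departures of 0.59 to 0.73.

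Adamts8, a secreted metalloproteinase of the matrix, was the gene called in both sets whose single changes were rises. Bmp10-high atria had 5.83, 6.13, 5.68 and 5.67 in Ntg, 6.36, 7.08, 7.10 and 7.41 in Mst1, 8.01, 7.83, 7.39 and 6.995 in dnPI3K, and 7.13, 7.24, 7.27 and 7.43 in dnPI3K-Mst1. The double transgenic lay within the range of the dnPI3K animals. It was raised 2.23-fold by Mst1, 3.31-fold by dnPI3K and 2.71-fold by both, a departure of -1.44 ± 0.29 (adjusted p = 0.0383). Bmp10-low atria had 6.54, 6.77, 7.66 and 5.81 in Ntg, 7.65, 8.30, 8.12 and 8.35 in Mst1, 9.80, 9.79, 8.42 and 8.81 in dnPI3K, and 7.81, 7.44, 7.76 and 7.74 in dnPI3K-Mst1. In this set every dnPI3K animal exceeded every double transgenic animal, and adding Mst1 to dnPI3K lowered Adamts8 by -1.52 ± 0.32 (adjusted p = 0.00256), for a departure of -2.92 ± 0.45 (adjusted p = 0.00434). The Bmp10-high call was lost with any 1 of 13 animals left out, all but Mst1 1466, dnPI3K 1660 and dnPI3K 3241, with departures between -1.65 and -1.29 over the 16 fits, and with the animal as a block (adjusted p = 0.0977). The departures of these 4 genes were not called different between the sets (high minus low -0.39 ± 0.20 for Slc7a7, 0.27 ± 0.24 for Stom, 0.35 for Abat and 1.48 ± 0.37 for Adamts8, adjusted p = 0.701, 0.816, 0.712 and 0.346).

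**Figure D3:**
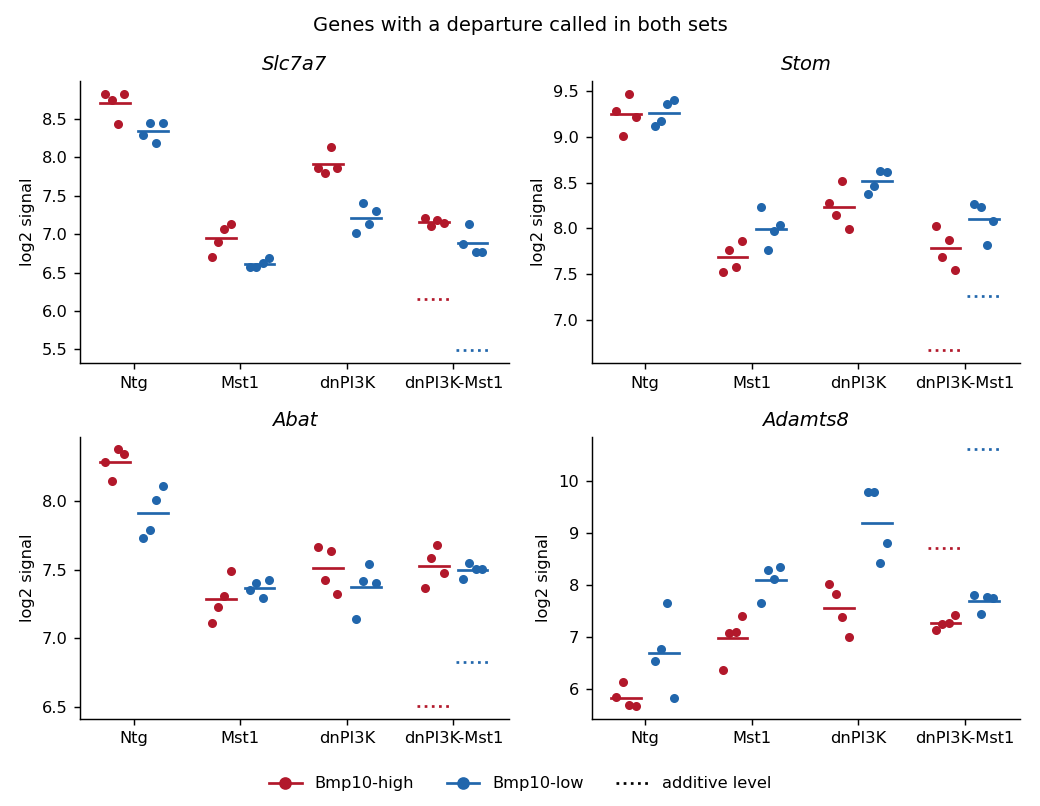
Levels (y axis, log2 signal) of Slc7a7, Stom, Abat and Adamts8 by genotype (x axis), 1 point per animal, red for Bmp10-high and blue for Bmp10-low, bars at the mean of 4 animals. Dotted lines over dnPI3K-Mst1 mark the additive level; the double transgenic animals lie above it for the first 3 genes and below it for Adamts8.

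Promoters of the agreeing genes were read because each kinase acts above a known DNA-binding factor. These are FoxO below PI3K and TEAD, the partner of YAP, below Mst1. RefSeq windows of 300 bases around a transcript start, build GRCm38.p6, matched 46 of the 57 genes; Abat and Adamts8 had none. The FoxO motif GTAAACA, on either strand, was in 1 of the 46 (2.17%), Nap1l5, against 4.05% of 27025 genes with a window. The TEAD motif GGAATG, on either strand, was in 10 (21.7%) against 16.6%, among them Slc7a7, Stom, Nppb and Pik3r1. The 2 motifs do not overlap in sequence, and a match of letters is not a bound site. The windows of Slc7a7 and Stom, the genes called in both sets that had one, and of Nap1l5 are shown. They are on the gene's strand, 5′ to 3′, with the motif in capitals. For Slc7a7, which has 5 windows, the one holding the motif is shown.
Slc7a7 (chr14:54417630-54417929, minus strand): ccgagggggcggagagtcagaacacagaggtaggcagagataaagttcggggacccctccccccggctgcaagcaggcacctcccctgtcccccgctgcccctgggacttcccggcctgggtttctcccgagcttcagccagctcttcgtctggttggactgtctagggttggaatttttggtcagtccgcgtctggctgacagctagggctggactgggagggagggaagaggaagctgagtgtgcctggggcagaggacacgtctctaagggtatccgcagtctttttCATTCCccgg
Stom (chr2:35336960-35337259, minus strand): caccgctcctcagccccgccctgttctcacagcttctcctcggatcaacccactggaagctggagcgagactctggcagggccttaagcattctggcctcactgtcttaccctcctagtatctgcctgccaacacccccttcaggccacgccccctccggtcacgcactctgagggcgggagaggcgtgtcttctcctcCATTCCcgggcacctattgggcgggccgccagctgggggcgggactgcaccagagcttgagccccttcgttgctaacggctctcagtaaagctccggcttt
Nap1l5 (chr6:58907077-58907376, minus strand): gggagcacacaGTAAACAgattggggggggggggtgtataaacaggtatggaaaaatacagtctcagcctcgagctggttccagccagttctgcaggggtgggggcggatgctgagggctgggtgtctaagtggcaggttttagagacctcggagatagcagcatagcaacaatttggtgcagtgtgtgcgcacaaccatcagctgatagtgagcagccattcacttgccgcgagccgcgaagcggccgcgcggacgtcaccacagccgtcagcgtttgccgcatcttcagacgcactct

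Negative single changes with a positive departure were the leading pattern among the 57 agreeing genes. Patterns were read from the signs of the estimates, whether or not a single change was called. In 35 of the agreeing genes (61.4%) both single changes were negative and the departure positive in both sets, against 13.8% of all genes. Some of these changes were small: Notch3 moved by -0.20 with Mst1 and -0.04 with dnPI3K in Bmp10-low atria (limma adjusted p = 0.228 and 0.899). In 13 (22.8%) both single changes were positive and the departure negative, against 9.04% of all genes. A more than additive rise was seen in 1, Sprr1a, and 1, Fndc1, had opposed single changes in both sets; the pattern differed between sets in 7. These percentages describe genes chosen on a departure of the same sign in both sets, and the departure shares arrays with the single changes. The pattern differed between sets in 60.2% of all genes against 12.3% of the 57. The shares over all genes are therefore not a like background.

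**Figure D4:**
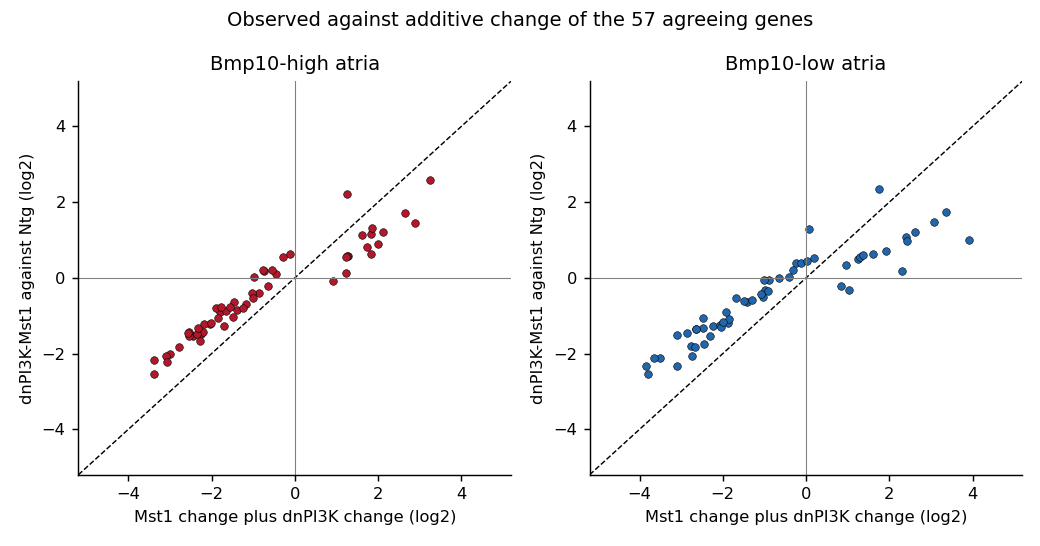
Change of dnPI3K-Mst1 against Ntg (y axis, log2) plotted against the sum of the Mst1 and dnPI3K changes (x axis, log2) for the 57 agreeing genes in each set, 1 point per gene. The dashed line is additivity, and genes with summed falls lie above it while most with summed rises lie below it.

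Several of the 35 genes have known roles in amino acid or energy handling; they are grouped here only for reading. Egln3, an oxygen-sensing prolyl hydroxylase, was lowered by Mst1, dnPI3K and both by -1.06, -1.42 and -1.06 in Bmp10-low atria, so all 3 transgenic genotypes stood near 1 level, and its departure was 1.41 ± 0.21 (adjusted p = 0.00337) against 0.82 ± 0.19 (0.0813) in Bmp10-high atria. Gys1, the muscle glycogen synthase, fell by -1.16, -1.08 and -1.26 in the Bmp10-low set and by -1.24, -0.94 and -1.22 in the Bmp10-high set, with departures of 0.98 (adjusted p = 0.0324) and 0.97 (0.13). Nt5c1a, a cytosolic nucleotidase that acts on AMP, departed by 1.01 ± 0.19 in Bmp10-high atria (adjusted p = 0.0327) and by 0.78 ± 0.18 in Bmp10-low atria (0.0878). Here the double fell further than Mst1 alone in means, -2.00 against -1.78 and -2.32 against -1.93, but less than the sum. The neutral amino acid transporter Slc36a2 departed by 0.84 (adjusted p = 0.0411) in the Bmp10-high set. It is also an adipocyte marker, and its Bmp10-low departure of 1.52 (0.208) includes dnPI3K-Mst1 1650, at 7.64 beside 5.68, 5.31 and 5.68 in the other double transgenic animals. Aass of lysine breakdown and the acyl-CoA synthetase Acsl6 were called in Bmp10-low atria at 1.16 and 1.15 (adjusted p = 0.00434 and 0.000908), and had 0.56 and 0.89 in Bmp10-high atria (0.281 and 0.12), where neither single change of Aass was called. With the animal as a block the Bmp10-high call of Slc36a2 was lost (0.349) and its Bmp10-low departure was called (0.0475), as was that of Nt5c1a (0.0475).

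Other members of the 35 encode receptors, a ligand and a muscle protein. Ednrb, an endothelin receptor, was lowered by Mst1, dnPI3K and both by -0.95, -0.84 and -0.91 in Bmp10-high atria, a departure of 0.89 ± 0.18 (adjusted p = 0.0452), and departed by 0.77 ± 0.19 in Bmp10-low atria (0.102). Bmp3 departed by 0.82 (adjusted p = 0.0919) and 1.01 (0.00434), and 0.94 (0.0483) and 1.06 (0.0137) without Ntg 1301 and dnPI3K-Mst1 1650, which made it the 1 gene called in both sets under that omission. Fhl2, a LIM domain protein of the sarcomere, departed by 0.82 (0.13) and 0.68 (0.0497), the 1 called gene among 42 of the sarcomere and Z-disc list, whose median departures were 0.047 and -0.11. Mrgprh, a receptor of the Mas-related family, fell deepest of these, by -2.35 with Mst1 and -2.31 with both in Bmp10-low atria, and departed by 1.52 ± 0.19 (adjusted p = 0.000908) against 1.04 ± 0.26 (0.114). Notch3, the Notch receptor of vascular smooth muscle, departed by 1.02 ± 0.20 in Bmp10-high atria (adjusted p = 0.0381), where Mst1 lowered it by -0.63 and the double stood at 0.03 against Ntg. Pik3r1, the regulatory partner of PI3K, departed by 0.73 ± 0.15 in Bmp10-low atria (0.0467) and 0.46 ± 0.20 in Bmp10-high atria (0.449). With the animal as a block Fhl2 was called in Bmp10-high (0.032) and not in Bmp10-low atria (0.0903), and Ednrb (0.0475), Bmp3 (0.032) and Mrgprh (0.0462) were called in both sets.

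In 13 agreeing genes both single changes were positive, and Lgals3 and Nppb are given by animal. Lgals3, the lectin galectin-3, read 7.26, 7.82, 7.72 and 7.14 in Bmp10-low Ntg atria, 9.39, 9.53, 9.24 and 9.41 in Mst1, 9.13, 8.97, 8.56 and 9.10 in dnPI3K, and 9.26, 9.10, 9.38 and 9.18 in dnPI3K-Mst1. Every transgenic animal stood above every control and the double transgenic was not called different from Mst1 (-0.16 ± 0.15, adjusted p = 0.601), a departure of -1.62 ± 0.21 (adjusted p = 0.000908). In Bmp10-high atria its departure was -0.93 ± 0.20 (0.0646), and -0.83 to -1.07 with each animal left out, passing without Mst1 1466 or Ntg 1662 and with the animal as a block (0.0355).

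Nppb, the B-type natriuretic peptide released by stretched heart muscle, read 10.94, 11.64, 11.54 and 10.34 in Bmp10-low Ntg atria, 12.47, 12.78, 12.74 and 12.77 in Mst1, 12.40, 12.07, 12.10 and 12.05 in dnPI3K, and 12.33, 12.18, 12.36 and 12.42 in dnPI3K-Mst1. All transgenic animals exceeded the controls, and each double transgenic animal was below each Mst1 animal. The double was not called different from Mst1 in Bmp10-low (-0.37, limma adjusted p = 0.33) or Bmp10-high atria (-0.24, 0.767). The departure was -1.41 ± 0.28 in Bmp10-low atria (adjusted p = 0.0324), lost without any 1 of 9 animals, and -0.91 ± 0.23 in Bmp10-high atria (0.114). The 9 were Mst1 1838, Mst1 1839, Mst1 1840, Ntg 1301, dnPI3K 1507, dnPI3K 1648, dnPI3K 3241, dnPI3K-Mst1 1509 and dnPI3K-Mst1 1649. Nppa, the atrial natriuretic peptide, had departures of 0.09 ± 0.10 and -0.15 ± 0.11 (adjusted p = 0.83 and 0.708).

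Other members of these 13 were called in 1 set. Nt5e, the ectoenzyme CD73 that makes adenosine, departed by -1.60 ± 0.25 in Bmp10-low atria (adjusted p = 0.00434) and -0.67 ± 0.21 in Bmp10-high atria (0.251). Ndnf, a secreted glycoprotein, departed by -1.20 ± 0.20 (0.0116) in the Bmp10-high set, where dnPI3K raised it by 1.28 and the double by 0.64, and by -1.35 ± 0.29 (0.0548) in the Bmp10-low set. Nap1l5 and the synaptic vesicle gene Sv2b were called in Bmp10-low atria at -1.21 and -0.98 (both 0.00434), with -1.09 and -0.69 in Bmp10-high atria (0.0752 and 0.109). Neb, the thin filament protein nebulin, departed by -1.01 (0.049) and -1.04 (0.102) although neither single change was called in either set. With the animal as a block Ndnf (0.00509) and Neb (0.0274) were also called in Bmp10-low atria, and Nap1l5 (0.0266) and Sv2b (0.0462) in Bmp10-high atria.

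More than additive rises were few. Sprr1a, a small proline-rich protein induced in stressed myocytes, was raised by Mst1 by 1.15 and 1.44 in the Bmp10-high and Bmp10-low sets and by both transgenes by 2.21 and 2.34, while dnPI3K alone moved it by 0.11 and 0.30 (adjusted p = 0.807 and 0.334). Its departures were 0.95 ± 0.19 (adjusted p = 0.0423) and 0.60 ± 0.22 (0.333). Adding dnPI3K to Mst1 raised it in both sets, by 1.06 and 0.90 (adjusted p = 0.000286 and 0.00705). Fndc1 departed by 1.23 ± 0.24 in Bmp10-low atria (0.0341) and 0.74 ± 0.22 in Bmp10-high atria (0.202). The secreted Wnt modulator Sfrp2 had departures of 0.95 and 0.95 and the matrix protein fibronectin, Fn1, 0.82 and 1.04, neither called in either set (adjusted p = 0.135, 0.373, 0.515 and 0.24). On linear signals Sfrp2 was called in both sets.

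Both single changes were called with opposite signs in 3 of 15219 genes in Bmp10-high and 31 in Bmp10-low atria, and the double was called with the sign of Mst1 in 2 and 10 of them. Kcnh7 was among them in both sets. Kcnh7, a potassium channel of the ERG family, read 5.30, 5.81, 5.59 and 5.78 in Bmp10-high Ntg atria, 4.29, 4.61, 4.72 and 4.75 in Mst1, 6.65, 7.02, 6.79 and 6.94 in dnPI3K, and 5.22, 4.61, 4.83 and 4.93 in dnPI3K-Mst1. In Bmp10-low atria the values were 5.57, 6.05, 6.20 and 5.91 in Ntg, 4.17, 4.44, 4.94 and 4.26 in Mst1, 7.60, 7.17, 7.08 and 7.48 in dnPI3K, and 5.11, 4.40, 4.96 and 4.67 in dnPI3K-Mst1. In both sets every dnPI3K animal lay above Ntg and every Mst1 and double transgenic animal below it. Kcnh7 was raised by dnPI3K 2.34-fold and 2.64-fold over Ntg, and with Mst1 also present it stood 3.86-fold and 5.85-fold below dnPI3K (adjusted p = 1.12e-08 and 4.37e-08). Its departures, -0.92 ± 0.20 and -1.07 ± 0.26, were not called (adjusted p = 0.0646 and 0.102). The Bmp10-high one passed without Mst1 1466 or without dnPI3K-Mst1 1509, and the Bmp10-low one with the animal as a block (0.0223). With array weights, and on linear signals, Kcnh7 was called in both sets. Scd4, a stearoyl-CoA desaturase of the heart, had departures of -0.95 and -1.35 (0.133 and 0.104), with Mst1 at -1.28 and -1.59, dnPI3K at 0.59 (not called, 0.139) and 1.34 and the double at -1.64 and -1.60; its Bmp10-low departure was called with the animal as a block (0.0219).

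Some departures were called in Bmp10-high atria and not in Bmp10-low atria. Stc1, the hormone stanniocalcin, was lowered by Mst1, dnPI3K and both by -1.14, -1.03 and -1.05 in Bmp10-high atria, a departure of 1.12 ± 0.17 (adjusted p = 0.0111), and moved by 0.02, -0.08 and -0.07 in Bmp10-low atria. Cacna1g, the T-type calcium channel of pacemaker cells, departed by 1.16 ± 0.19 (0.0116) and 0.13 ± 0.19 (0.889), the calcium channel subunit Cacna2d2 by 1.14 (0.0383) and 0.25 (0.834), and the IGF-binding protein Igfbp5 by 1.52 ± 0.27 (0.0179) and 0.52 ± 0.35 (0.685). The Igfbp5 call was lost without Ntg 1301, Ntg 1657, dnPI3K 1648 or dnPI3K-Mst1 1647, at departures of 1.32 to 1.64 over the 16 fits. The difference between sets was not called for these 4 (adjusted p = 0.189, 0.283, 0.61 and 0.521); with the animal as a block it was called for Stc1 and not for the other 3.

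Lrtm1 and Nrg1 were called in Bmp10-low and not in Bmp10-high atria. Lrtm1, a leucine-rich repeat membrane protein, had the smallest p of all departures: it read 8.12, 8.19, 8.81 and 8.22 in Bmp10-low Ntg atria, 5.05, 5.13, 5.23 and 5.42 in Mst1, 5.22, 5.48, 5.52 and 5.34 in dnPI3K, and 4.86, 5.21, 5.06 and 5.08 in dnPI3K-Mst1. Every transgenic animal lay far below every control and the 3 transgenic groups lay close together. Mst1, dnPI3K and both lowered it by -3.13, -2.95 and -3.28, a departure of 2.79 ± 0.19 (adjusted p = 2.22e-07). In Bmp10-high atria Lrtm1 read 6.96, 6.44, 6.97 and 5.84 in Ntg and 4.83, 7.19, 5.69 and 5.53 in dnPI3K. These groups overlapped, and the departure was 0.73 ± 0.46 (0.645). The high dnPI3K value belongs to animal 1648, whose array also carried Myl2 at 10.70; without that animal the call was the same. The additive level of Lrtm1 in Bmp10-low atria was below 4.48, the level under which genes were left out as dim.

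Nrg1, a ligand of ERBB receptors, was raised by Mst1, dnPI3K and both by 2.95, 2.24 and 3.57 in Bmp10-low atria, a departure of -1.62 ± 0.31 (adjusted p = 0.0263), and by 2.58, 1.26 and 3.79 in Bmp10-high atria, a departure of -0.038 ± 0.30 (0.981). The double had the highest mean in both sets. Its departure depended on the scale: on linear signals, relative to the gene's mean, it was 0.052 in Bmp10-low atria and 1.07 in Bmp10-high atria. The Bmp10-low call was also lost without any 1 of 8 animals (Mst1 1838, Mst1 1840, Ntg 1301, Ntg 1657, dnPI3K 1507, dnPI3K 1648, dnPI3K 3241 and dnPI3K-Mst1 1649), with departures of -1.84 to -1.43 over the 16 fits. The difference between sets was 1.58 for Nrg1 and -2.06 for Lrtm1, neither called (adjusted p = 0.175 and 0.191).

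The test of the difference itself, on each animal's Bmp10-high minus Bmp10-low array, called 5 genes (0.0329%), with 1110 at an unadjusted p under 0.05. In all 5 the departure was higher in Bmp10-high atria. Adm, the vasodilator peptide adrenomedullin, read 9.42, 9.41, 9.04 and 8.99 in Bmp10-high Ntg atria, 8.44, 8.38, 8.82 and 8.67 in Mst1, 8.45, 8.19, 8.397 and 8.35 in dnPI3K, and 8.97, 9.10, 8.85 and 8.70 in dnPI3K-Mst1. In Bmp10-low atria it read 6.52, 6.42, 6.35 and 6.21 in Ntg, 8.02, 7.74, 7.75 and 7.81 in Mst1, 6.98, 6.84, 6.58 and 6.90 in dnPI3K, and 8.16, 8.23, 7.81 and 8.07 in dnPI3K-Mst1. Each transgene thus lowered Adm where controls were high and raised it where controls were low. The double returned towards Ntg in Bmp10-high atria (departure 1.19 ± 0.19, adjusted p = 0.0111) and was near additive in Bmp10-low atria (-0.21 ± 0.15, 0.715), a difference of 1.41 (adjusted p = 0.00781). It was called with any animal left out, was 1.29 (0.17) when the 4 animals with arrays standing apart were dropped, and was -0.85 when arrays were split by the labelled side.

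Atp6v0a4, a subunit of the vacuolar proton pump, read 4.92, 5.04, 5.02 and 5.15 in Bmp10-high Ntg atria, 5.402, 5.62, 5.18 and 5.54 in Mst1, 4.66, 5.01, 4.84 and 5.33 in dnPI3K, and 5.62, 6.09, 6.01 and 5.86 in dnPI3K-Mst1. Its Bmp10-low values were 5.18, 5.13, 5.62 and 5.27 in Ntg, 7.29, 7.60, 7.05 and 7.12 in Mst1, 5.22, 5.53, 5.06 and 5.42 in dnPI3K, and 6.09, 6.43, 6.31 and 6.53 in dnPI3K-Mst1. In Bmp10-low atria every double transgenic animal lay below every Mst1 animal, while in Bmp10-high atria the double had the highest mean. Adding dnPI3K to Mst1 lowered it by -0.92 ± 0.14 in Bmp10-low atria (adjusted p = 0.00396) and moved it by 0.46 ± 0.14 in Bmp10-high atria (0.172). The Bmp10-low departure of -0.93 (0.0494) was called in only 4 of the 16 fits that left out 1 animal (Ntg 1662, dnPI3K 1660, dnPI3K-Mst1 1647 or dnPI3K-Mst1 1650). The Bmp10-high departure was 0.53 (0.354), and the difference of 1.46 (0.00781) was called with any animal left out.

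Upp1, a uridine phosphorylase, had departures of 0.42 and -0.85 and a difference of 1.27. For P3h2, which modifies collagen prolines, they were 0.23 and -0.85 with a difference of 1.08, and for Cd34, a surface protein of endothelium and fibroblasts, 0.65 and -0.30 with 0.94. The adjusted p was 0.0495 for each. With 1 animal left out the call was lost in 16 of 16 fits for Cd34, in 15 for Upp1 (all but dnPI3K 1648) and in 14 for P3h2 (all but dnPI3K 1660 and dnPI3K-Mst1 1509). With the spread modelled over the mean difference in place of the mean level, none of the 5 was called, and with the animal as a block Adm and Atp6v0a4 were, but not Upp1 (0.0777), P3h2 (0.197) or Cd34 (0.0835). The trend over the mean difference gave adjusted p = 0.1 for Adm and 0.0893 for Atp6v0a4.

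**Figure D5:**
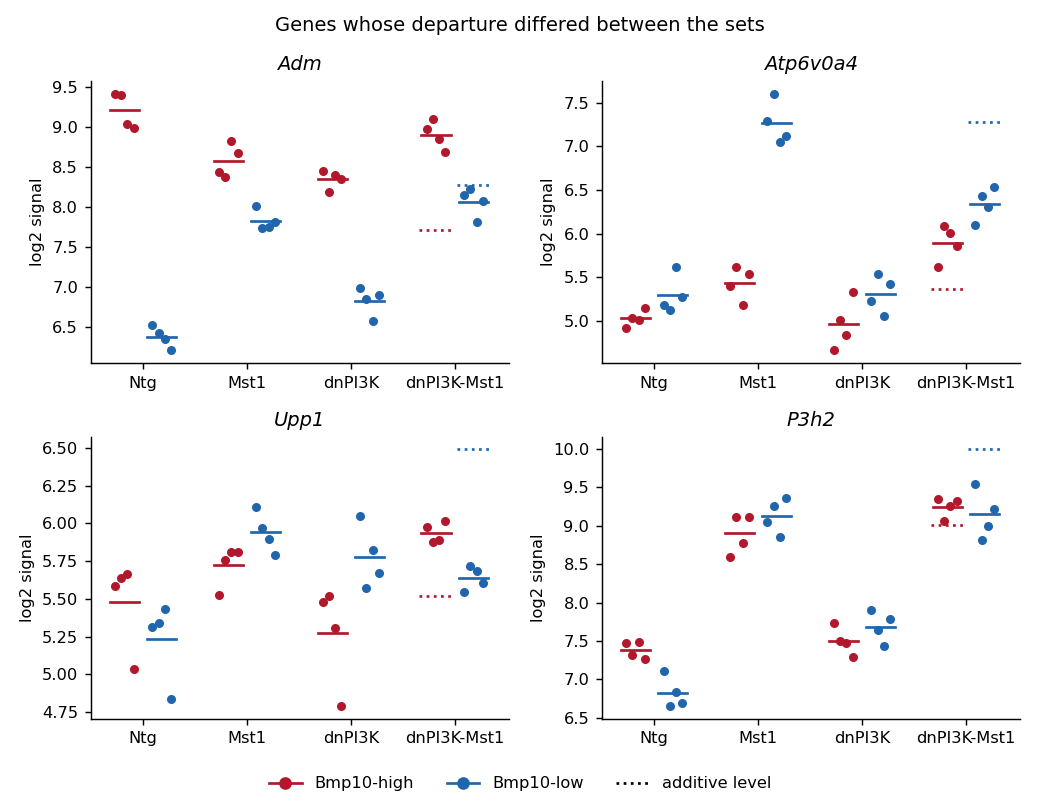
Levels (y axis, log2 signal) of Adm, Atp6v0a4, Upp1 and P3h2 by genotype (x axis), 1 point per animal, red for Bmp10-high and blue for Bmp10-low, bars at the mean of 4 animals and dotted lines at the additive level. For all 4 genes every red double transgenic animal lies above the red additive level and every blue one below the blue level.

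Pathways and cell types were described with 42 gene lists covering 936 measured genes, beside medians over all genes of 0.075 in Bmp10-high and -0.014 in Bmp10-low atria. No list held more than 2 called genes in a set. At the shares over all genes, 0.217% and 0.368% called, each of these lists would hold less than 1 called gene, so a count of 0 does not set a list apart. At an unadjusted p under 0.05 the shares over all genes were 9.67% and 9.87%. Of 74 oxidative phosphorylation genes 0 were called in either set, with median departures of 0.060 and 0.035 (medians of -0.62 with Mst1 and -0.77 with both in Bmp10-high atria), and the median was 0.24 and 0.09 for 27 citrate cycle genes and 0.19 and 0.08 for 39 fatty acid genes, again with 0 called. By limma's unadjusted p under 0.05 these 3 lists held 3, 8 and 4 genes in Bmp10-high and 0, 4 and 5 in Bmp10-low atria. Among the other energy lists, Gys1 was called upward of 26 glycolysis and glucose genes and Prkag2, a regulatory subunit of AMP-activated kinase, downward (-0.99, adjusted p = 0.0183) of 17 creatine and adenylate genes, both in Bmp10-low atria. Ckm, the muscle creatine kinase, fell by -3.57 with Mst1 and -4.11 with both in Bmp10-high atria, departing by 0.11 ± 0.22 (adjusted p = 0.91). Of 28 Hippo genes and 29 FoxO and atrophy genes 0 were called by limma, with 3 and 3 at an unadjusted p under 0.05 in Bmp10-high and 3 and 8 in Bmp10-low atria. Among 35 PI3K and insulin genes Pik3r1 was called upward and Nrg1 downward, and among 25 YAP and TEAD targets Nt5e and Nrg1 downward, all in Bmp10-low atria.

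For 46 collagen and matrix genes the median departure was 0.57 in Bmp10-high and 0.18 in Bmp10-low atria, with Adamts8 called downward in both and none upward; Col1a1 departed by 0.76 ± 0.39 and 0.60 ± 0.39 (adjusted p = 0.555 and 0.678). Endothelial markers had medians of 0.38 and 0.16 with 0 of 22 called, and fibroblast markers 0.39 and -0.09 with 0 of 20. Macrophage markers had 0.21 and 0.45 with 0 of 25, and smooth muscle and pericyte markers 0.33 and 0.29 with Notch3 called of 18. Over all genes limma called 0.217% and 0.368%, and 9.67% and 9.87% had an unadjusted p under 0.05. A count of 0 therefore sets none of these lists apart. At limma's unadjusted p under 0.05 the collagen and matrix list held 25 of 46 genes in Bmp10-high and 4 in Bmp10-low atria, and the smooth muscle list 5 and 8 of 18. The endothelial, fibroblast and macrophage lists held 6, 5 and 1 genes in Bmp10-high and 4, 3 and 3 in Bmp10-low atria. The mean smooth muscle marker level of dnPI3K-Mst1 arrays was 8.05 to 8.22 in Bmp10-high atria. It was 7.47 to 7.75 in Ntg, 7.57 to 8.11 in Mst1 and 7.54 to 7.71 in dnPI3K. Fibroblast markers there stood at 8.95 to 9.14 in dnPI3K-Mst1. They stood at 8.17 to 8.70 in Ntg, 8.65 to 8.85 in Mst1 and 8.09 to 8.62 in dnPI3K. The endothelial and macrophage marker levels of the double overlapped those of Ntg. The part of these levels in the departures was not tested. With the 4 animals of the arrays standing apart dropped, the Bmp10-high medians were 0.46 for collagens, 0.32 for endothelial, 0.22 for fibroblast and 0.12 for smooth muscle markers, beside 0.006 over all genes.

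Adipocyte markers had the largest list median, 1.501 in Bmp10-low atria with 13 of 13 positive and 0 called by limma (6 at an unadjusted p under 0.05), against -0.16 in Bmp10-high atria. Their mean level in Bmp10-low atria ran from 6.77 to 8.29 in Ntg and 6.16 to 8.402 in dnPI3K-Mst1. It ran from 6.15 to 6.46 in Mst1 and 6.49 to 7.01 in dnPI3K. Without Ntg 1301 and dnPI3K-Mst1 1650, chosen for their Adipoq level, the median was 0.41 with 9 of 13 positive. The same omission left 7 genes called in Bmp10-high and 27 in Bmp10-low atria. Only Bmp3 was then called in both sets, so Slc7a7, Stom, Abat and Adamts8 lost that call. Their departures in Bmp10-low atria were 1.46, 0.90, 0.73 and -2.89, in that order.

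The Mst1 transgene was checked through Stk4, the gene that encodes Mst1. The labels do not name the part of PI3K used, so Pik3ca is described without being taken as the gene of the dnPI3K transgene. Stk4 was higher in every animal labelled as carrying Mst1 than in every other animal in both sets, by 0.71 in Mst1 against Ntg in each, with departures of 0.028 ± 0.20 and 0.00 ± 0.13. Pik3ca, the catalytic subunit, was raised by dnPI3K by 0.99 and 0.85 and by both transgenes by 1.28 and 1.03, with departures of -0.21 ± 0.29 and -0.54 ± 0.18 (adjusted p = 0.855 and 0.273). Neither departure was called for either gene. Mst1 alone also raised Pik3ca in Bmp10-low atria, by 0.73 (0.000312), so the rise there was not specific to dnPI3K.

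Some upward departures involved low signals. Of the genes called upward, the additive level lay under 4.48 in 5 of 29 in Bmp10-high atria (Gpr158, Igsf1, Nt5c1a, Padi2 and Rxrg) and in 6 of 33 in Bmp10-low atria (Acsl6, Itgb6, Lrtm1, Mrgprh, Smco1 and Tlcd4), against 1.51% and 1.83% of all genes. The observed double lay under 4.48 in 0 of the 29 and 1 of the 33, and the part of low signal in the departures was not tested. Slc7a7, Stom and Abat had additive levels of 5.49 or more. On the scale of linear signals, where additivity means another thing, 90 genes were called in Bmp10-high atria, 113 in Bmp10-low atria and 26 in both. The 26 included Slc7a7, Stom and Abat but not Adamts8.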

How the data were processed

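Both atria of 16 mice were profiled on 32 Affymetrix Mouse Gene 1.0 ST arrays from 100 ng of total RNA each, per the labels' protocols. The deposited values are log2 signals; the submitters' processing notes name Affymetrix Expression Console and PLIER, with neither version nor role, and that the values are on a log2 scale was read from their range and is not stated by the labels. They were used without further normalization. Probe sets with 1 gene symbol in the platform annotation were kept (21789 of 35512; 1621 had several and 12102 none), the brightest probe set stood for a gene, and genes under the 30th percentile of mean signal were left out, which kept 15219 of 19938. Gene names come from that annotation.

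Within each Bmp10 set of 16 arrays, limma 3.58.1 in R 4.3.3 fitted the 4 genotypes with eBayes (trend over the mean level) and Benjamini-Hochberg adjustment over all 15219 genes, and a gene was called at an adjusted p under 0.05. ± denotes a standard error from that fit, with 4 animals per genotype. The difference between sets was fitted on each animal's Bmp10-high minus Bmp10-low array. All p-values are two-sided, and the number of arrays limits their precision. The scripts were tested on simulated data. Both arrays of a number come from 1 animal, per the labels; after subtracting group means, the 2 arrays of 1 mouse had correlations of -0.01 to 0.44 (median 0.22), over 0.1 in 12 of 16 mice.

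Genes named are those called in both sets, the largest departures per set, genes called in a list, those called for the difference, and a fixed group of pathway genes; Sprr1a, Fndc1, Aass, Acsl6, Sfrp2 and Fn1 were chosen after their values were seen. The members, lists and tests were chosen with earlier results of these data known. Alternatives changed the normalization, filter, probe set rule, variance model, weights, scale, block, split and animals.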

Additional observations from a re-analysis of the deposited data

Results flagged for a closer look

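In the 10 genes followed by animal, 80 groups of 4 animals were screened for a value far from the other 3, of which chance flags about 1 in 20, and 4 stood out. Lgals3 in Mst1 animal 1466 read 8.66 in Bmp10-high atria, beside 9.21 to 9.28 in the other Mst1 animals. Nppb in the same animal read 12.47 in Bmp10-low atria, beside 12.74 to 12.78. Nppb in dnPI3K animal 1507 read 12.4 in Bmp10-low atria, below which the others lay between 12.05 and 12.10. Lrtm1 in Ntg animal 1662 read 8.81 in Bmp10-low atria, beside 8.12 to 8.22 in the other Ntg animals. The Bmp10-high arrays of these 3 animals were among the 4 with a low mean correlation to the other arrays. Of the flagged values only that of Lgals3 came from such an array. The others came from Bmp10-low arrays, where the lowest mean correlation was 0.9738. The part of array quality in the values was not tested.

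The departure differed between Bmp10-high and Bmp10-low atria by limma's test of the difference in 5 genes, by 1.41 for Adm and 1.46 for Atp6v0a4 (adjusted p = 0.00781 each), 1.27 for Upp1, 1.08 for P3h2 and 0.94 for Cd34 (adjusted p = 0.0495 each).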

How the results depend on the processing

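Over the departures and between-set differences of the named genes, 2962 alternative values kept the direction and the side of the threshold. Another 449 lost the call, 107 gained one and 83 changed sign, mostly values near 0. The cause of these changes was not tested, and this tally leaves out the counts of called genes. Values that kept their side of the threshold include departures that were uncalled in the main fit and stayed uncalled. Of 56 called results of named genes, 54 had the same sign under every setting, but only 8 were called under every setting. The counts called in Bmp10-high atria, in Bmp10-low atria, in both and for the difference were 33, 56, 4 and 5. They became 184, 202, 49 and 5 with array weights, 90, 113, 26 and 1 on linear signals, 54, 83, 13 and 3 with the animal as a replicate block (consensus correlation 0.189), and 0, 24, 0 and 0 with arrays split by labelled side. The difference called 3 genes after quantile normalization, 2 with arrays centred on their medians (where 2 were called in both sets), 2 without the filter (where 22 were called in Bmp10-high atria), 2 without the trend and 0 with the trend over the mean difference. Chosen after seeing the data, leaving out the 4 animals whose arrays stood apart gave 47, 26, 5 and 1, with 55.3% of the Bmp10-high calls positive against 87.9%. The 5 called in both sets were then Acsl6, Adamts8, Lgals3, Sfrp5 and Slc7a7, without Stom or Abat. Leaving out the 2 fat-rich animals gave 7, 27, 1 and 2, with Bmp3 the 1 gene called in both. With 1 animal left out the counts ran from 9 to 76, 28 to 94, 1 to 16 and 2 to 5.

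Values that changed sign were, for Bmp10-high and then Bmp10-low atria where both did: Myh7 -0.084 and Stk4 -0.053 (high) after quantile normalization, and Bmp10 0.017 (high) and Stk4 -0.023 (low) with centred arrays. Array weights gave Myh7 -0.067 and -0.035, Stk4 -0.005 (low) and Stc1 0.052 (low). Linear signals gave Agtr1a -0.134, Pik3ca 0.015 and Myh7 -0.043 (high), Nrg1 1.069 and 0.052, and Adm 0.061 (low). The labelled side gave Plet1 0.076, Cpne7 0.145, Nrg1 0.066 and P3h2 -0.04 in the left arrays, Bmp10 1.903, Myh7 -0.066, Stk4 -0.116, Stc1 0.395 and Adm 0.914 in the right arrays, and -0.846 for the Adm difference. Without the 4 animals apart, Agtr1a was -0.077, Ckm -0.147 and Stk4 -0.101 (high) and Myh7 -0.207 and -0.18. Without the 2 fat-rich animals, Bmp10 was 0.012 (high), Myh7 -0.006 and -0.004, and Stk4 -0.084 (low). With 1 animal left out the sign changed within -0.289 to 0.089 and -0.73 to 0.226 for Bmp10, -0.222 to 0.111 and -0.124 to 0.163 for Myh7, -0.073 to 0.145 and -0.054 to 0.081 for Stk4, and, in 1 set each, -0.009 to 0.244 for Ckm, -0.275 to 0.123 for Nrg1 and -0.397 to 0.05 for Pik3ca (high) and -0.089 to 0.072 for Stc1 (low).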
